A study of Sus scrofa with 6 samples.

Results

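Solute carriers are membrane proteins that move sugars, lactate, fatty acids, nucleosides, metals and other ions across the cell surface or into organelles. Muscle relies on them to take up fuel, to release the lactate of glycolysis, and to hold its ion gradients. Most are named SLC with a family number, and members of a family usually share a type of substrate but can differ in cell type and direction of transport.

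The solute carriers described here were the rows of the deposited table whose Ensembl pig identifier maps to a symbol of SLC and a digit. The mitochondrial SLC25A family and 10 named carriers, chiefly of amino acids, were set aside. Of 201 such rows, 95 reached 1 FPKM (mapped fragments scaled by transcript length and library size) in 3 or more of the 6 libraries. The whole table holds 17627 rows, of which 11798 pass the same level. The members were thus chosen on their level, and that they are expressed is no result. Of the 95, 71 stood at 1 FPKM or more in all 6 libraries, 22 in some libraries of each breed, 1 in Wannanhua libraries alone (SLC4A10) and 1 in Yorkshire libraries alone (SLC66A3). SLC4A10 and SLC66A3 passed only through the breed where they are higher, so they had to differ.

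The muscle was longissimus dorsi, which runs along the back, with 3 libraries from Wannanhua, a local breed of China, and 3 from Yorkshire, a lean commercial breed. Every library is labelled 5 months old, although the design text speaks of piglets. Neither sex, diet nor farm is used here, and separate animals are not stated, so the spread behind each p-value may be technical. No treatment or engineered allele is named for either breed.

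Recovered reads ran from 16385602 to 21056700 per library. Of 14 defining genes of skeletal muscle, 4 had a usable row (MYL1, TNNC2, DES and ACTN2), and these stood at 473 FPKM or more in every library. Wannanhua 3 differed from Wannanhua 1 and 2 in fibre genes. The mean log2(FPKM + 1) of 6 measured slow-fibre genes of 12 listed was 12.15, 12.10 and 10.41 in Wannanhua 1, 2 and 3, against 10.34, 8.74 and 9.51 in Yorkshire 1, 2 and 3. That of 6 measured fast-fibre genes of 13 listed was 9.43, 9.45 and 11.12 in Wannanhua, against 11.52, 11.56 and 11.78 in Yorkshire. Summed levels were 11100 to 43800 FPKM in Wannanhua and 5680 to 17400 in Yorkshire for the slow list, and 11600 to 36600 against 53800 to 54900 FPKM for the fast list. No measured gene of these lists was at 0. Yorkshire 1 was the lowest of the 6 libraries for 41 of the 95 carriers (43.2%), and for 36.3% of all 11791 genes tested.

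Between breeds, 4 of the 95 carriers passed the test. SLC20A2, a sodium-coupled phosphate carrier, and SLC35E4, a relative of the nucleotide-sugar carriers, rose in Wannanhua muscle. SLC29A2, an equilibrative nucleoside carrier, fell. The fourth was SLC4A10, a bicarbonate carrier whose direction the level rule had fixed. Fold changes are differences of mean log2(FPKM + 1), Wannanhua less Yorkshire, a scale that understates the changes of low genes. They were tested by limma with Benjamini-Hochberg adjustment over all 11791 genes at a threshold of 0.05. These 4 of 95 calls (4.21%) stand beside 3.05% of all genes tested, 3 higher beside 1.76% and 1 lower beside 1.29%. After quantile normalization, 2 carriers passed higher and 3 lower, and over all genes 138 higher and 200 lower in place of 208 and 152. Among the 93 carriers at 1 FPKM in libraries of both breeds, which leaves out SLC4A10 and SLC66A3, 3 passed (3.23%), 2 of them higher. In limma at this threshold the share of carriers called was near that of the table as a whole. The shares in edgeR and DESeq2 are given below. In bulk tissue, fewer cells of a type and less RNA per cell cannot be told apart.

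These calls changed with the library left out, as did those over all genes. None of the 4 passed in limma without Wannanhua 1, Wannanhua 2, Yorkshire 2 or Yorkshire 3. Those settings called 27 to 58 of all 11791 genes, against 360 with every library. In them 22 to 29 carriers still had an unadjusted p under 0.05, beside 1813 to 2324 of all genes. SLC29A2 alone of the carriers passed without Yorkshire 1, beside 190 of all genes. Without Wannanhua 3, 9 carriers passed, 6 higher and 3 lower, beside 524 of all genes, 289 higher and 235 lower. A quasi-likelihood test in edgeR on recovered reads called 5 carriers (5.26%), SLC20A2, SLC35E4 and SLC35F1 higher and SLC29A2 and SLC16A3 lower. This stands beside 2.87% of the 13065 genes it tested (1.41% higher and 1.46% lower). DESeq2 called 15 carriers (15.8%, beside 8.21% of its genes), 9 higher beside 4.07% and 6 lower beside 4.14%. Beyond the 5 of edgeR these were SLC4A10, SLC4A3, SLC22A16, SLC46A3, SLC22A23 and SLC9B2 higher and SLC66A2, SLC4A4, SLC41A3 and SLC16A5 lower.

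Among the 95 carriers 67 had a positive fold change (70.5%, beside 62.6% of all genes tested). Their median was 0.18 and that of all genes 0.12. After quantile normalization the medians were 0.03 and 0.00. The libraries of the breeds did not overlap for 38 carriers (40.0%, beside 29.9% of all genes), 29 carriers higher in Wannanhua (30.5%, beside 20.3% of all genes) and 9 lower (9.47%, beside 9.63%). Within Wannanhua, the third library lay closest to Yorkshire for 15 of the 29 (51.7%, beside 41.6% of such genes) and 4 of the 9 (44.4%, beside 53.7%). Wannanhua 1 was closest for 12 of the 29 (41.4%, beside 38.6%), and Wannanhua 2 for 4 of the 9 (44.4%, beside 29.8%). At an unadjusted p under 0.05 stood 31 carriers (32.6%, beside 22.1%), 23 higher (24.2%, beside 14.6%) and 8 lower (8.42%, beside 7.53%).

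**Figure D1:**
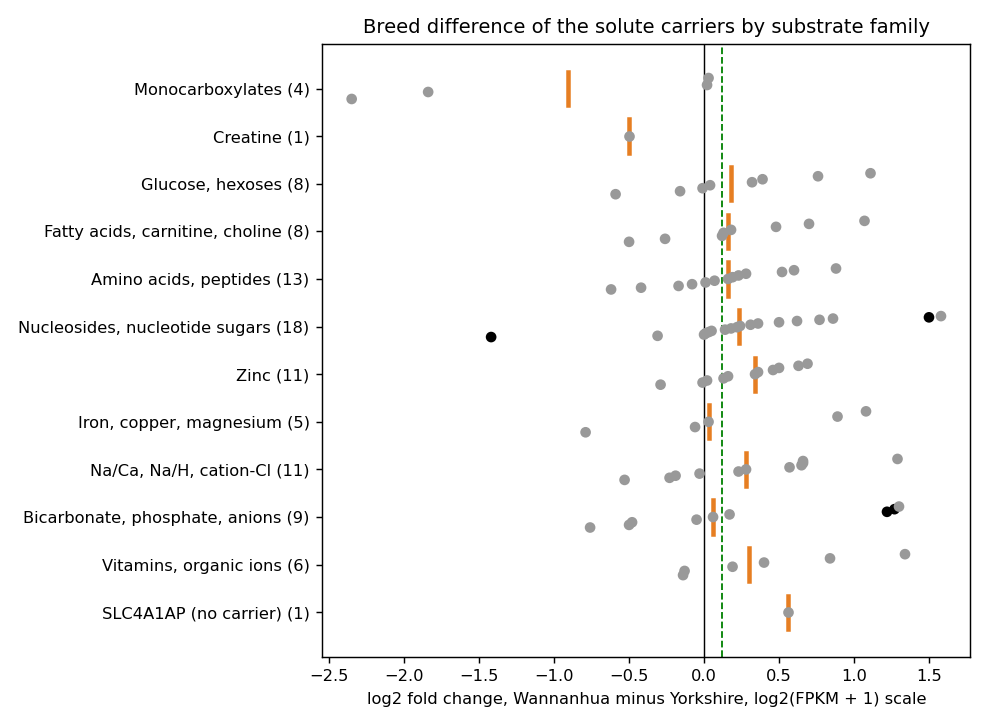
Log2 fold change, Wannanhua minus Yorkshire, of each of the 95 solute carriers by substrate family, with the number of members in brackets. Black points passed the threshold of 0.05, grey points did not, orange bars are family medians and the dashed green line is the median of all genes tested at 0.12. The widest spread to the left is that of the monocarboxylate family, where SLC16A5 stands at -2.35 and SLC16A3 at -1.84.

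Levels of the 95 carriers spanned a wide range. Mean FPKM over the 6 libraries ran from 0.859 for SLC66A3 to 67.7 for SLC6A8, with a median of 4.53. Above 10 FPKM stood 23 carriers, and under 5 FPKM 51. The 5 carriers of highest level were SLC6A8 for creatine, SLC44A2 for choline, SLC2A4 for glucose, SLC35F5 of the nucleotide-sugar family and SLC41A1 for magnesium, and they held 29.1% of the summed FPKM of all 95. SLC41A1 owed its place to Wannanhua 2, since without that library its mean was 18.8 in place of 33.4 FPKM and its rank 12. The sum over the 95 was 775, 970 and 867 FPKM in Wannanhua 1, 2 and 3, against 722, 920 and 830 FPKM in Yorkshire 1, 2 and 3. These sums overlap between the breeds.

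**Figure D2:**
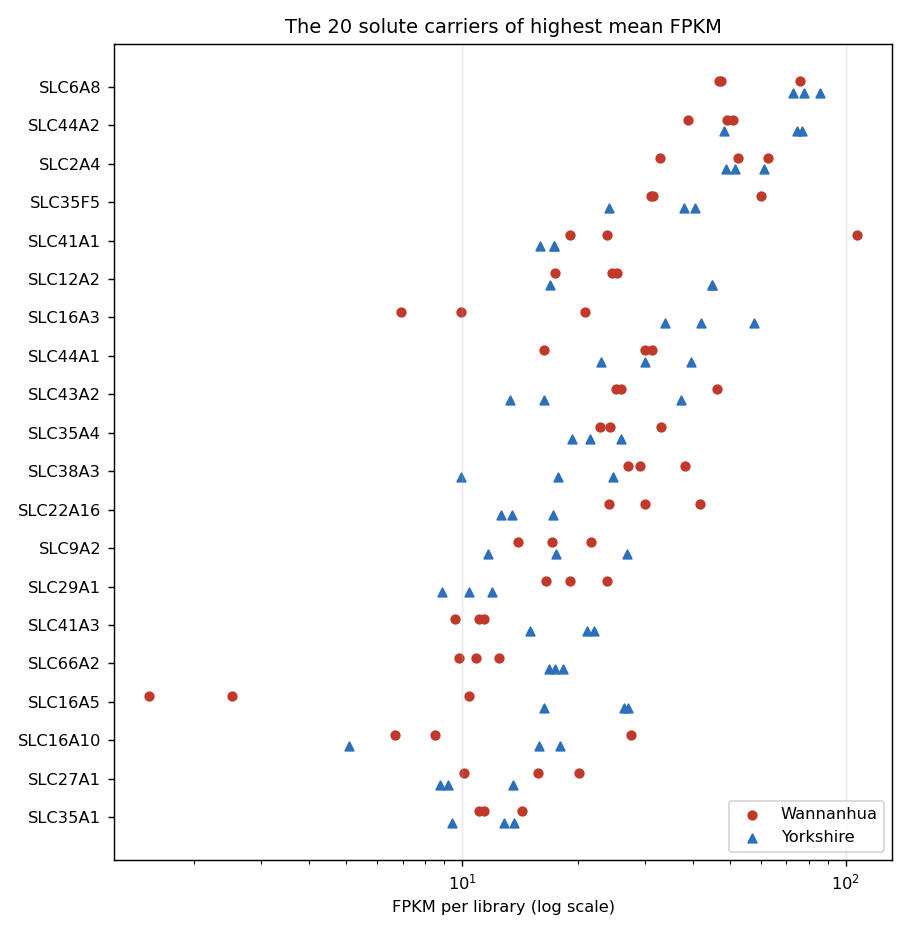
FPKM in each library, on a log axis, of the 20 solute carriers of highest mean FPKM, ordered from the highest at the top, with Wannanhua as red circles above Yorkshire as blue triangles. SLC6A8 leads at a mean of 67.7 FPKM. The breeds do not overlap for SLC16A3, SLC16A5, SLC41A3 and SLC66A2, lower in Wannanhua, and for SLC22A16, SLC29A1, SLC38A3 and SLC41A1, higher. None of these carriers passed the limma threshold.

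The lactate carriers of the SLC16A family move lactate together with a proton, and other members of the family have other substrates. The carrier SLC16A3 (ENSSSCG00000024018), also called MCT4, releases lactate from glycolytic fibres. SLC16A3 stood at 6.94, 9.96 and 20.9 FPKM in Wannanhua 1, 2 and 3, against 57.8, 42.0 and 33.9 FPKM in Yorkshire 1, 2 and 3. The breeds did not overlap, and the Wannanhua library nearest to Yorkshire was the third. Its mean was 3.54-fold lower in Wannanhua (12.6 ± 7.35 against 44.6 ± 12.2 FPKM, SD, n = 3), with a log2 fold change of -1.84 ± 0.38 (SE). This missed the threshold in limma (adjusted p = 0.0512) and passed it in edgeR (0.0424) and without Wannanhua 3 (0.0127). Over 15 alternatives its adjusted p ran from 6.15e-05 to 0.173, and 5 of them called it lower.

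SLC16A5 (ENSSSCG00000017215) belongs to the same family and carries drugs such as bumetanide in human. SLC16A5 stood at 1.53, 2.52 and 10.4 FPKM in Wannanhua 1, 2 and 3, against 27.1, 16.4 and 26.4 FPKM in Yorkshire 1, 2 and 3. Again the breeds did not overlap and Wannanhua 3 lay nearest to Yorkshire. The log2 fold change was -2.35 ± 0.53 (SE), the largest in size among the 95 carriers, with a limma adjusted p of 0.0611 that became 0.0057 without Wannanhua 3. Over the 15 alternatives it ran from 0.000456 to 0.196, and 2 of them called SLC16A5 lower.

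On the fast-fibre list too Wannanhua 3 was the highest Wannanhua library, below all 3 Yorkshire libraries. LDHA, the muscle subunit of lactate dehydrogenase, reached 1780, 1030 and 3870 FPKM in Wannanhua 1, 2 and 3, against 8160, 8820 and 10100 FPKM in Yorkshire 1, 2 and 3 (limma adjusted p = 0.0495, edgeR adjusted p = 0.0626). The part of fibre make-up in the values of SLC16A3, SLC16A5 and the other carriers was not tested.

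**Figure D3:**
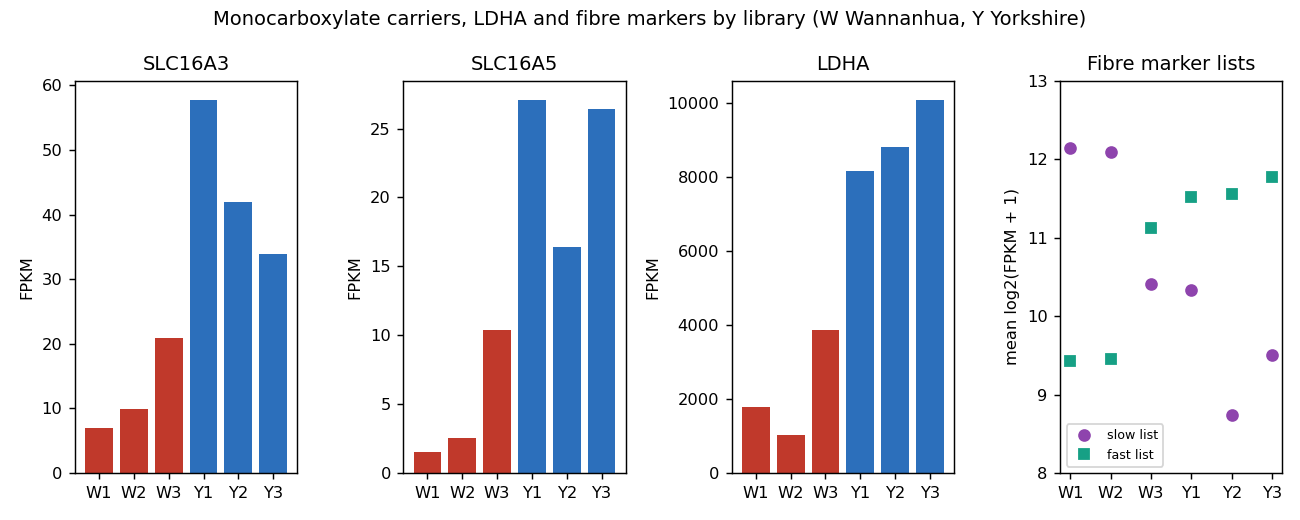
FPKM of SLC16A3, SLC16A5 and LDHA as bars for Wannanhua 1 to 3 (W, red) and Yorkshire 1 to 3 (Y, blue), with the mean log2(FPKM + 1) of the slow and fast fibre lists at the right. In all 3 genes and in the fast list Wannanhua 3 is the highest Wannanhua library, and every Yorkshire library is above it.

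The other monocarboxylate members overlapped between the breeds. SLC16A10, which carries aromatic amino acids, stood at 6.69, 8.50 and 27.5 FPKM in Wannanhua 1, 2 and 3, against 5.08, 18.0 and 15.9 FPKM in Yorkshire. Its interval of the log2 fold change was wide, from -1.35 to 1.42 (95%). SLC16A9 had an interval from -0.69 to 0.72. SLC16A7, a pyruvate and lactate carrier, fell outside the level rule although it stood at 11.4 FPKM in Wannanhua 2, since the other libraries held 0.0245 to 1.45 FPKM. Of 4 tested genes around lactate, of 7 listed, LDHA passed lower and 0 passed higher in limma, beside 3.05% of all genes called. LDHD, which oxidizes D-lactate, and PDHA1 of pyruvate dehydrogenase did not overlap between the breeds and stood higher in Wannanhua (limma adjusted p = 0.0791 and 0.167, DESeq2 adjusted p = 0.0295 and 0.532). BSG and LDHB, the usual partner of these carriers and the heart-type subunit, were not analysed here.

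Glucose enters resting and insulin-stimulated muscle through the SLC2A family, with SLC2A4 (GLUT4) as the insulin-regulated member. SLC2A4 (ENSSSCG00000023915) stood at 52.4, 62.8 and 32.9 FPKM in Wannanhua 1, 2 and 3, against 48.8, 61.1 and 51.3 FPKM in Yorkshire 1, 2 and 3. Wannanhua 3 was the lowest of the 6 libraries and the breeds overlapped. The log2 fold change was -0.16 ± 0.26 (SE, 95% interval -0.76 to 0.44, limma adjusted p = 0.753), and 0.10 without Wannanhua 3. That interval holds differences of either sign, so neither a rise nor a fall was detected. SLC2A12, a further glucose carrier, averaged 7.04 ± 1.08 FPKM in Wannanhua, against 6.76 ± 0.45 in Yorkshire (SD, n = 3).

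None of the 8 glucose and hexose members passed in limma, beside 3 with an unadjusted p under 0.05, described next. SLC5A4, a glucose sensor in human, stood at 3.63, 7.97 and 4.37 FPKM in Wannanhua, against 2.29, 0.87 and 2.63 FPKM in Yorkshire (limma adjusted p = 0.121). SLC50A1, a sugar carrier of the SWEET type, averaged 8.67 ± 2.20 FPKM in Wannanhua, against 4.65 ± 0.71 in Yorkshire (limma adjusted p = 0.115), but on only 36 to 70 reads a library. SLC2A11, a fructose and glucose carrier, averaged 2.91 ± 0.90 FPKM in Wannanhua, against 4.82 ± 0.61 in Yorkshire (limma adjusted p = 0.169). The breeds did not overlap for these 3 carriers. Over all genes, here and for the other families, 22.1% had an unadjusted p under 0.05 and 29.9% did not overlap. A list of genes around SLC2A4 covered its traffic, insulin signalling, the transcription factors MEF2A, MEF2C and MEF2D, and the hexokinases HK1 and HK2. Of its 14 tested genes, 0 passed in limma or edgeR, beside 3.05% and 2.87% of all genes. Their fold changes had a median of 0.29, beside 0.12 for all genes, and 10 were positive. Of the 14, 3 stood higher in Wannanhua without overlap (RAB10, INSR and HK2) and 0 lower, beside 20.3% and 9.63% of all genes. The log2 fold change of RAB10 was 0.33 in limma (adjusted p = 0.29) and 0.11 in edgeR (adjusted p = 0.79). DESeq2 called HK2, beside 8.21% of its genes (log2 fold change 1.08, limma adjusted p = 0.101, DESeq2 adjusted p = 0.0128).

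Among carriers of fatty acids, carnitine and choline, 0 of 8 passed in limma, beside 2 with an unadjusted p under 0.05. SLC22A16 (ENSSSCG00000004399), known as a carnitine carrier of the human testis, stood at 41.7, 24.2 and 30.0 FPKM in Wannanhua, against 13.5, 17.3 and 12.6 FPKM in Yorkshire. The Wannanhua libraries were all higher, by 2.21-fold on the means (log2 fold change 1.07 ± 0.24 SE, limma adjusted p = 0.0595, 0.0198 to 0.198 over its alternatives). SLC33A1, which brings acetyl-CoA into the endoplasmic reticulum, averaged 3.88 ± 0.73 FPKM in Wannanhua, against 1.97 ± 0.16 in Yorkshire, again without overlap (limma adjusted p = 0.0822).

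SLC27A3 at the edge of the level rule did not overlap between the breeds, with an interval of the log2 fold change from -0.25 to 0.49, and the other 2 fatty acid transport proteins named here overlapped. SLC27A1 (FATP1), the main one of muscle, stood at 15.8, 20.2 and 10.1 FPKM in Wannanhua, against 8.75, 9.19 and 13.6 FPKM in Yorkshire (95% interval of the log2 fold change -0.17 to 1.14). SLC27A4 had an interval from -0.33 to 0.69. The choline carriers SLC44A1 and SLC44A2 were abundant. SLC44A2 averaged 46.1 ± 6.44 FPKM in Wannanhua, against 66.6 ± 15.9 in Yorkshire, with overlap (log2 fold change -0.50 ± 0.23 SE, limma adjusted p = 0.256), and SLC44A1 had an interval from -0.97 to 0.44. Of 7 tested genes for uptake and activation of fatty acids, 1 passed in limma, beside 3.05% of all genes, and 4 stood higher without overlap, beside 20.3%. The called gene was CPT1B, of the carnitine shuttle, which stood at 154, 145 and 76.1 FPKM in Wannanhua, against 30.4, 23.8 and 26.2 FPKM in Yorkshire (limma adjusted p = 0.0235). CPT2, ACSL1 and ACSL3 were the others without overlap, with log2 fold changes of 1.73, 1.58 and 0.99, and limma adjusted p of 0.101, 0.0581 and 0.0973. DESeq2 gave these 3 genes adjusted p of 0.00252, 0.00292 and 0.0289.

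SLC6A8, the creatine carrier that feeds the phosphocreatine store, was the carrier of highest mean level and the only one of 16 rows for creatine, osmolytes and transmitters to reach the level rule. SLC6A8 (ENSSSCG00000012771) stood at 47.4, 46.6 and 76.0 FPKM in Wannanhua 1, 2 and 3, against 72.8, 85.8 and 77.8 FPKM in Yorkshire 1, 2 and 3. Wannanhua 1 and 2 lay below all Yorkshire libraries, and Wannanhua 3 lay among them. The log2 fold change was -0.50 ± 0.23 (SE; 95% interval -1.04 to 0.03; limma adjusted p = 0.247, and 0.0689 without Wannanhua 3). SLC6A6, the taurine carrier, was listed at no more than 0.53 FPKM, with 13 reads at most.

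Nucleosides cross the cell surface through the equilibrative carriers SLC29A1 and SLC29A2, and the fold changes of these carriers had opposite signs. SLC29A2 (ENSSSCG00000012941) stood at 2.69, 3.60 and 4.54 FPKM in Wannanhua, against 10.2, 10.2 and 13.3 FPKM in Yorkshire. All Wannanhua libraries were lower, and SLC29A2 fell by 1.42 ± 0.21 (SE) on the log2 scale, 3.11-fold on the means (limma adjusted p = 0.0295, edgeR adjusted p = 0.0157). Over its alternatives the adjusted p ran from 1.42e-06 to 0.123, and 10 of 15 called it lower. Leaving out a library gave 0.0188 without Wannanhua 3, 0.0398 without Yorkshire 1 and 0.0708 to 0.123 without any of the other 4.

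SLC29A1 (ENSSSCG00000001700) stood at 19.1, 23.8 and 16.6 FPKM in Wannanhua, against 12, 10.4 and 8.85 FPKM in Yorkshire. Here all Wannanhua libraries were higher, but the fold change of 0.86 ± 0.20 (SE) did not pass (limma adjusted p = 0.0665, edgeR adjusted p = 0.106). The ratio of SLC29A1 to SLC29A2, both per length, was 7.09, 6.63 and 3.67 in Wannanhua 1, 2 and 3, against 1.18, 1.02 and 0.667 in Yorkshire 1, 2 and 3. The pair was chosen after its values were seen, and the ratio is given with no test.

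The SLC35 family brings nucleotide sugars into the Golgi apparatus and endoplasmic reticulum, where they feed glycosylation. SLC35E4 (ENSSSCG00000010012), whose substrate is not settled, stood at 3.88, 7.18 and 4.02 FPKM in Wannanhua, against 1.27, 1.34 and 0.66 FPKM in Yorkshire. It rose 4.62-fold on the means, on 17 to 163 reads a library (log2 fold change 1.5 ± 0.26 SE, limma adjusted p = 0.0389, edgeR adjusted p = 0.0278, 2.47e-05 to 0.136 over its alternatives). Without Wannanhua 3 the adjusted p was 0.039, and without any other library 0.0574 to 0.136. SLC35F1, an orphan of the family, stood at 6.53, 7.56 and 1.88 FPKM in Wannanhua, against 0.80, 1.01 and 0.89 FPKM in Yorkshire. Wannanhua 3 was again nearest to Yorkshire. SLC35F1 missed the threshold in limma (adjusted p = 0.078) and passed it in edgeR (0.0436) and without Wannanhua 3 (0.00514), with 0.227 at the other end of its alternatives.

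SLC35A1 and SLC35A2 are SLC35 carriers of known substrate, and both overlapped between the breeds. They do not stand for the family. Among other members, SLC35B3 and SLC35A5 stood higher in Wannanhua without overlap (limma adjusted p = 0.236 and 0.167), while SLC35A3, SLC35B2 and SLC35C2 overlapped. SLC35A1 for CMP-sialic acid averaged 12.3 ± 1.79 FPKM in Wannanhua, against 12 ± 2.29 in Yorkshire, with an interval of the log2 fold change from -0.44 to 0.51. SLC35A2 for UDP-galactose averaged 2.73 ± 0.56 and 2.68 ± 0.21 FPKM in Wannanhua and Yorkshire, with an interval from -0.41 to 0.43. SLC35F5, the most abundant of the family, had an interval from -0.52 to 0.95. Over the 18 members for nucleosides and nucleotide sugars 1 was higher and 1 lower past the threshold, beside 1.76% and 1.29% of all genes. Of the 18, 7 had an unadjusted p under 0.05 in limma, beside 22.1% of all genes. Without overlap 7 stood higher and 1 lower in Wannanhua, beside 20.3% and 9.63%. A positive fold change was found for 16, beside 62.6%. The median fold change of the 18 was 0.23, and 0.10 in edgeR, beside 0.12 and 0.01 for all genes.

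**Figure D4:**
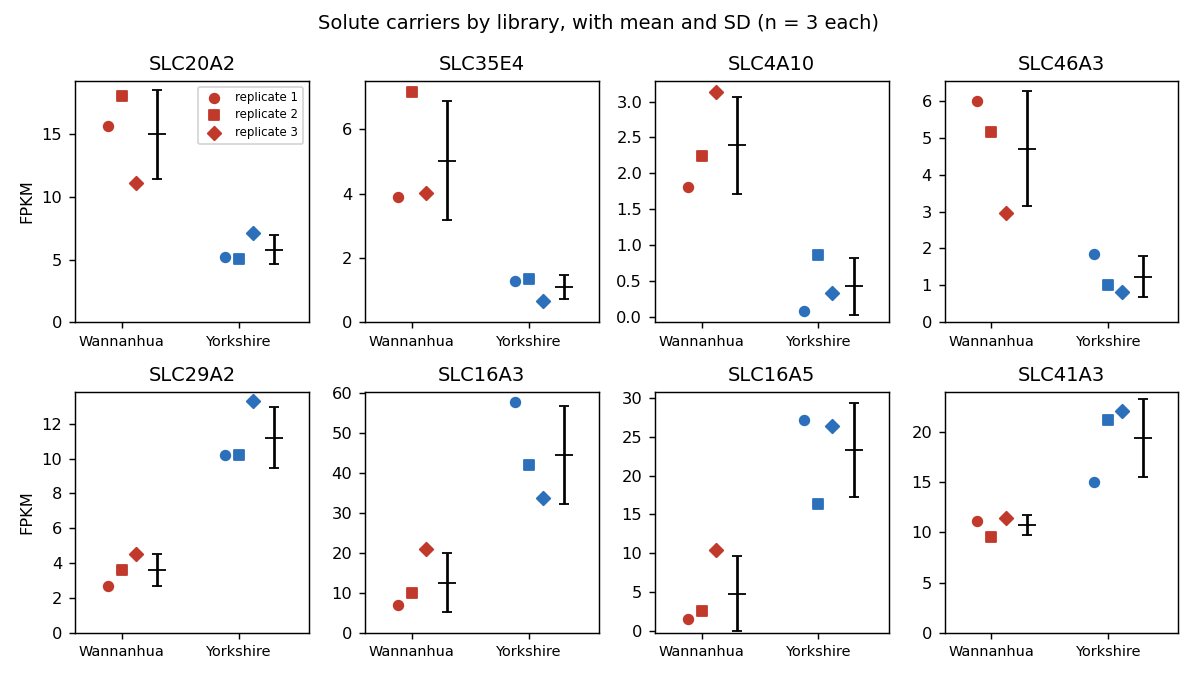
FPKM of 8 solute carriers in each library (circle, square and diamond for replicates 1, 2 and 3), Wannanhua in red left of Yorkshire in blue, with the mean and SD as a black bar. The upper 4 are higher in every Wannanhua library and the lower 4 lower; SLC20A2, SLC35E4, SLC4A10 and SLC29A2 passed the limma threshold.

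Phosphate enters cells through SLC20A2 (PiT2), a sodium-phosphate cotransporter. SLC20A2 (ENSSSCG00000007027) stood at 15.7, 18.1 and 11.1 FPKM in Wannanhua 1, 2 and 3, against 5.17, 5.06 and 7.14 FPKM in Yorkshire 1, 2 and 3. It rose 2.59-fold on the means (15 ± 3.56 against 5.79 ± 1.17 FPKM, SD, n = 3), with a log2 fold change of 1.22 ± 0.23 (SE, limma adjusted p = 0.0424, edgeR adjusted p = 0.044). Over the 15 alternatives it ran from 0.00145 to 0.145, with 7 calls. It was 0.0234 without Wannanhua 3, and 0.0744 to 0.145 without any other library. After quantile normalization it was 0.0569.

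Bicarbonate carriers of the SLC4A family set the pH of the cell, and the fold changes of the members named here had both signs. SLC4A10 (ENSSSCG00000015893), best known from neurons, stood at 1.81, 2.24 and 3.13 FPKM in Wannanhua, against 0.0843, 0.864 and 0.327 FPKM in Yorkshire. These values rested on 5 to 177 reads a library. SLC4A10 reached the level rule through Wannanhua alone and had to be higher there. It passed the threshold (log2 fold change 1.27 ± 0.25 SE, limma adjusted p = 0.0473), but not in edgeR (0.0755), nor without any single library (0.0689 to 0.167), and it ran from 0.00101 to 0.167 over its alternatives. Of 7 listed genes of nerve and Schwann cells 3 were measured, with summed levels of 11.3 to 16.2 FPKM in Wannanhua and 4.18 to 13.3 in Yorkshire and 0 members at 0. The part of nerve in the value of SLC4A10 was not tested.

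SLC4A3, a chloride-bicarbonate exchanger of heart and brain, stood at 1.95, 18.2 and 4.63 FPKM in Wannanhua, against 1.67, 1.89 and 1.81 FPKM in Yorkshire. Wannanhua 2 stood far above the other 5 libraries (log2 fold change 1.30 ± 0.60 SE, limma adjusted p = 0.254, and a fold change of 0.55 without that library). SLC4A2, a widespread anion exchanger, averaged 1.87 ± 0.11 FPKM in Wannanhua, against 3.04 ± 0.75 in Yorkshire, and SLC4A4, a sodium-bicarbonate cotransporter, 1.81 ± 0.05 and 3.10 ± 1.15 FPKM in Wannanhua and Yorkshire. Both were lower in every Wannanhua library and did not pass (limma adjusted p = 0.199 and 0.25). SLC4A1, the exchanger of red cells, was listed at no more than 0.0239 FPKM.

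Of 11 exchangers of sodium with calcium or protons and cation-chloride cotransporters, 0 passed in limma or edgeR, 1 passed in DESeq2 (SLC9B2), and 3 had an unadjusted p under 0.05 in limma. SLC9B2, a sodium-proton exchanger, stood at 3.93, 6.14 and 1.74 FPKM in Wannanhua, against 0.122, 1.32 and 1.52 FPKM in Yorkshire (limma adjusted p = 0.139, DESeq2 adjusted p = 0.0382, 0.0382 to 0.346 over its alternatives). The Wannanhua libraries were all higher, with Wannanhua 3 nearest to Yorkshire.

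SLC12A2 (NKCC1), the sodium-potassium-chloride cotransporter, stood at 17.5, 25.4 and 24.6 FPKM in Wannanhua, against 17.0, 44.9 and 44.7 FPKM in Yorkshire. Yorkshire 1 lay with the Wannanhua libraries, and the difference on the log2 scale was -0.53 ± 0.38 (SE, limma adjusted p = 0.446), and -0.98 without Yorkshire 1 (adjusted p = 0.0697). SLC12A4 (KCC1), which lets potassium and chloride out, averaged 7.67 ± 1.46 FPKM in Wannanhua, against 4.47 ± 0.53 in Yorkshire without overlap (limma adjusted p = 0.112). SLC8A3 (NCX3), the sodium-calcium exchanger of skeletal muscle, averaged 6.70 ± 2.48 and 7.78 ± 2.47 FPKM in Wannanhua and Yorkshire, with an interval of the log2 fold change from -0.91 to 0.52.

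Zinc mostly leaves the cytosol through SLC30A carriers and enters it through SLC39A carriers. None of the 11 zinc members passed in limma or edgeR, beside 3 with an unadjusted p under 0.05 in limma. Their median fold change was 0.34, and 0.18 after quantile normalization, beside 0.12 and 0.00 for all genes. A positive fold change was found for 9 of the 11, beside 62.6% of all genes. Without overlap 5 stood higher in Wannanhua and 0 lower, beside 20.3% and 9.63% of all genes. SLC30A9, a zinc carrier of mitochondria, stood at 17.6, 13.3 and 14.0 FPKM in Wannanhua, against 8.00, 9.87 and 10.1 FPKM in Yorkshire, with no overlap (log2 fold change 0.63 ± 0.18 SE, limma adjusted p = 0.112). SLC39A8, which also carries manganese, averaged 2.03 ± 0.44 FPKM in Wannanhua, against 0.888 ± 0.36 in Yorkshire on 13 to 58 reads (limma adjusted p = 0.116). SLC39A1, by contrast, averaged 8.85 ± 1.64 and 8.83 ± 0.97 FPKM in Wannanhua and Yorkshire.

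Magnesium carriers of the SLC41A family had fold changes of opposite sign. SLC41A3 (ENSSSCG00000001825) stood at 11.1, 9.57 and 11.4 FPKM in Wannanhua, against 15, 21.2 and 22.1 FPKM in Yorkshire, lower in every Wannanhua library but not past the threshold (log2 fold change -0.79 ± 0.20 SE, limma adjusted p = 0.0795, edgeR adjusted p = 0.057). SLC41A1 stood at 19.1, 107 and 23.9 FPKM in Wannanhua, against 16, 17.4 and 17.4 FPKM in Yorkshire. Its Wannanhua 2 value rested on 7487 reads, the highest read number of any carrier in a library. SLC41A1 and SLC4A3 were the carriers at least 3-fold above every other library in a single library, both in Wannanhua 2 (2.11% of the carriers, beside 0.305% of all genes tested). The log2 fold change of SLC41A1, 1.08 ± 0.58 (SE), was 0.32 without Wannanhua 2.

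SLC40A1 (ferroportin), the exporter of iron, stood at 6.46, 8.67 and 3.28 FPKM in Wannanhua, against 2.06, 2.94 and 2.98 FPKM in Yorkshire (limma adjusted p = 0.153, 0.0404 without Wannanhua 3 and up to 0.369 over its alternatives). Macrophages also express it, and 6 of 10 listed macrophage genes were measured, with sums of 14.6 to 17.9 FPKM in Wannanhua and 11.8 to 24.1 in Yorkshire, MARCO being listed at 0 in Yorkshire 1. Their part in the value of SLC40A1 was not tested. Of 8 tested genes of iron and copper handling 0 passed in limma or edgeR, beside 3.05% and 2.87% of all genes. DESeq2 called STEAP3, a reductase of iron, which overlapped between the breeds (log2 fold change 1.08, limma adjusted p = 0.164, DESeq2 adjusted p = 0.0272).

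Amino acid and peptide carriers outside the main plasma membrane set held 13 members, of which 0 passed in limma or edgeR, beside 3 with an unadjusted p under 0.05 in limma. SLC66A2, a relative of lysosomal amino acid exporters, stood at 9.82, 12.5 and 10.9 FPKM in Wannanhua, against 17.5, 18.3 and 16.9 FPKM in Yorkshire. This was a narrow but complete separation (log2 fold change -0.62 ± 0.16 SE, limma adjusted p = 0.0872, edgeR adjusted p = 0.0566), and it passed after quantile normalization (0.0491; 0.00881 to 0.241 over its alternatives). SLC38A3, a glutamine carrier, averaged 31.4 ± 5.81 FPKM in Wannanhua, against 17.5 ± 7.40 in Yorkshire (limma adjusted p = 0.169). SLC43A2, a leucine carrier, overlapped, with an interval of the log2 fold change from -0.34 to 1.55.

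Carriers of vitamins and organic ions held SLC46A3, a lysosomal carrier, as the member nearest to a call. SLC46A3 (ENSSSCG00000009322) stood at 5.99, 5.15 and 2.96 FPKM in Wannanhua, against 1.85, 1.01 and 0.82 FPKM in Yorkshire. All Wannanhua libraries were higher, by 3.84-fold on the means (log2 fold change 1.34 ± 0.28 SE, limma adjusted p = 0.0504, edgeR adjusted p = 0.0693). It was 0.0266 without Wannanhua 3 and ran from 0.00335 to 0.175 over its alternatives. SLC22A23, an orphan of the organic ion family, averaged 8.71 ± 1.91 FPKM in Wannanhua, against 4.44 ± 1.10 in Yorkshire (limma adjusted p = 0.0973). SLC5A6, the carrier of biotin and pantothenate, averaged 7.17 ± 1.39 and 8.18 ± 2.42 FPKM in Wannanhua and Yorkshire, with an interval from -0.74 to 0.45. SLC4A1AP, which carries an SLC name but is no carrier, averaged 8.18 ± 0.38 FPKM in Wannanhua, against 5.32 ± 1.27 in Yorkshire (limma adjusted p = 0.164).

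By usual location, 26 carriers belong to organelles and 36 to the cell surface, and 33 were not assigned. The median fold change was 0.23 for organelles and 0.23 for the surface. Surface carriers had a median level of 7.07 FPKM and organelle carriers 3.31 FPKM.

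The level rule had carriers on either side of it. By the third highest of their 6 libraries, those just inside included SLC27A3 at 1.01, SLC16A9 at 1.03, SLC2A8 at 1.04 and SLC66A3 at 1.05 FPKM. The 5 just outside were SLC1A4 at 0.974, SLC18B1 at 0.964, SLC35B4 at 0.948, SLC35E3 at 0.942 and SLC12A9 at 0.928 FPKM. Of the 106 carrier rows below the rule, 90 reached 1 FPKM in no library and 16 in 1 or 2 libraries. Such carriers as SLC2A1, SLC16A1, SLC22A5, SLC8A1 and SLC20A1 were not analysed here.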

How the data were processed

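The deposited table holds 6 libraries of poly-A RNA, made with a kit that the labels' protocols name and that does not mark strand. FPKM values are the authors', per the file headers. The deposited values headed as counts are not whole and were treated as a signal, reads multiplied by a library factor: 99.71% to 99.82% of values above 0 were whole multiples of a step fitted from each library's most frequent low value, within 0.01 of a read or a relative 1e-05. Per the submitters' processing notes, CASAVA 1.7, TopHat2 2.0.6 and the build Sscrofa10.2 were involved. The counter, the annotation and the handling of reads shared by similar carriers were not stated. Symbols matched 10384 of 17627 identifiers (58.9%).

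Breeds were compared by limma 3.58.1 under R 4.3.3 (trend and robust settings, breed as the term) on log2(FPKM + 1), for genes at 1 FPKM or more in 3 or more libraries. The 7 genes that reach 10000 scaled counts in a library and are listed at 0 in another were left out, which touched 0 carriers and left 11791 genes. Alternatives were edgeR 4.0.16 with TMM and DESeq2 1.42.0 on recovered reads, other moderation, normalization, filter, pseudocount and the replicate block, and each library left out. All 3 tools were tested on simulated data. Members, families, partner genes and the rule for named genes were chosen with earlier results of these data known; the location groups and genes named beyond the rule were chosen after their values were seen. The rule named every called carrier, the 10 highest and 10 lowest (9 existed) of those without overlap, the most abundant of each family, 25 listed carriers (13 were members) and those nearest the level rule. Antisense and overlapping genes cannot be told apart without strand. Intervals are 95% limma intervals. A few genes that the rule names are not reported here.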

Additional observations from a re-analysis of the deposited data

How the results depend on the processing

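The count of 360 genes called was 69 without a filter, 205 with the replicate number as a block, 1192 with DESeq2, and 27 to 524 with a library left out. The count of 4 carriers was 0 without a filter (limma, 32 at an unadjusted p under 0.05), 15 with DESeq2, and 0 to 9 with a library left out. The other alternatives gave 3 to 5 carriers, 3 of them with the replicate block; same-numbered libraries correlated at 0.101, -0.012 and 0.107 in their deviations, and not every library best with its own number (the block called SLC46A3, SLC35E4 and SLC29A2), so the numbers are not taken as pairs. No carrier called in limma changed sign. The uncalled SLC16A9 turned to -0.10 after quantile normalization, -0.01 with a pseudocount of 0.1, -0.08 in edgeR and -0.07 in DESeq2, and SLC2A8 to 0.01 with a pseudocount of 0.1. With a library left out, the range was -0.27 to 0.22 for SLC16A9, -0.18 to 0.15 for SLC2A8, -0.36 to 0.10 for SLC2A4, -0.02 to 0.31 for SLC27A4, -0.09 to 0.37 for SLC35F5, -0.45 to 0.02 for SLC44A1 and -0.38 to 0.00 for SLC5A6. The causes were not tested. Carriers of few reads are the least precise, and the lowest number in a library was 5, for the called SLC4A10.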
